A study of Mus musculus with 46 samples.

Results

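Htr3a and Htr3b encode the subunits of the ionotropic serotonin receptor, the 5-HT3 receptor, and are 2 of the 22800 genes counted by symbol in single oriens-lacunosum moleculare (OLM) interneurons. They were chosen by their names, and selected on earlier results of these same cells, in which the number of cells with reads of each subunit differed between driver lines. Their detection and levels are therefore given as a description with no test.

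The 5-HT3 receptor is a pentameric cation channel of the Cys-loop family, which also holds the nicotinic acetylcholine, glycine and GABA-A receptors. It opens when serotonin binds, unlike the other serotonin receptors, which act through G proteins. The Htr3a product can form a working channel alone, while the Htr3b product needs Htr3a to reach the membrane and raises the conductance of the mixed channel. In the forebrain Htr3a is known as a marker of interneurons from the caudal ganglionic eminence (CGE), a source distinct from the medial ganglionic eminence (MGE) that gives most somatostatin cells.

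The cells came from mice aged postnatal day 21 to 30, of a Htr3a Cre driver line (23 cells) or a Sst Cre driver line (23 cells). Each was identified by its anatomy as an OLM cell, a dendrite-targeting hippocampal interneuron, and had passed quality control. Its cytosol was drawn into a patch pipette and its RNA sequenced as 1 library. The sources used here do not say how each driver allele was built, nor how much of the region around the receptor genes it carries. Reads from the endogenous gene and from any copy in a driver construct cannot be told apart in these counts.

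Each deposited sample is 1 cell and no animal is named, so each line counts as 1 sample and no p-value is given. Reads assigned to genes numbered 3391829 to 26136222 in Htr3a-line cells (median 15336981) and 5639490 to 31386369 in Sst-line cells (median 16726879). Genes with a read numbered 3350 to 12693 per Htr3a-line cell (median 8169) and 3225 to 8774 per Sst-line cell (median 6569). Against the OLM label, Sst and Gad1 were each read in 23 of 23 cells of both lines. A few Htr3a-line libraries stood apart. Replicates 4 and 20 held 4 and 24 reads of Gad1, the enzyme that makes GABA, and replicate 6 had the fewest genes. Replicate 10 had the most genes and 10912 CPM (counts per 1000000 assigned reads) summed over the vascular and blood markers.

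Both genes lie on the minus strand of mouse chromosome 9 in GRCm38. Htr3a is annotated at chr9:48899213-48911099 and Htr3b at chr9:48935008-48964990, with 23908 bases between them, and both are protein-coding. An antisense gene, Gm32335 (chr9:48896451-48905982), overlaps Htr3a and is not analysed here. No source used here says whether the counting used strand. If it did not, unspliced reads of this antisense gene that cross Htr3a exons cannot be told apart from reads of Htr3a. The coding sequences of the subunits, 1449 bases for Htr3a and 1311 for Htr3b, matched at 783 of 1309 aligned bases (59.8%). The longest run that they share letter for letter is 14 bases. It is shown in capitals with 20 bases on each side, 5′ to 3′ on the coding strand, from the GENCODE M21 transcripts of GRCm38. The run starts at coding base 382 of Htr3a and 349 of Htr3b.
Htr3a: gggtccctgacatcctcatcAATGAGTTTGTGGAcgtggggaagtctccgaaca
Htr3b: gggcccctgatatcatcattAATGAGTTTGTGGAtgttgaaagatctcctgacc
None of the 2080 words of 31 bases in Htr3a exons occurs, on either strand, in annotated transcripts of another gene, Gm32335 included. In Htr3b exons 12 of 2364 words (0.508%) do. No 31-base word is common to the subunits, so their counts hold separate signals.

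Htr3b, the accessory subunit, was read in cells of 1 line only. Reads were found in 11 of 23 Htr3a-line cells (47.8%, exact 95% interval 26.8 to 69.4) and in 0 of 23 Sst-line cells (0 to 14.8). These intervals cover counting error only. Over all Htr3a-line cells the lowest, median and highest levels were 0, 0 and 248 CPM, and every Sst-line cell was at 0.

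The Htr3b-positive cells spanned a wide range of levels. Replicates 9 and 16 were the highest at 248 CPM each (4779 and 4099 reads), and replicate 18 had 212 CPM (3981 reads). Replicates 3 and 2 followed at 120.0 and 117 CPM (1616 and 1620 reads). These 5 cells were the ones above 100 CPM. Replicate 8 had 95.1 CPM (922 reads), replicate 13 had 79.5 CPM (1729 reads) and replicate 15 had 43.2 CPM (690 reads). Replicates 22 and 23 were lower at 21.5 and 11.3 CPM (211 and 174 reads), and replicate 10 had 1.45 CPM from 27 reads. Of the 11 Htr3b cells, 10 passed 10 CPM. The exception, replicate 10, had Htr3b at the 14.6th percentile of the genes read in that cell. The median of the 11 was 95.1 CPM, and the highest cell held 24.1% of the line's Htr3b reads.

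The mean log2(CPM + 1) of Htr3b was 2.84 ± 3.34 in the Htr3a line and 0 in the Sst line (SD between 23 cells each). The SD exceeds the mean because the Htr3a-line cells divide into 12 cells at 0 and 11 cells from 1.45 to 248 CPM. Summed over cells, Htr3b took 57.6 CPM in the Htr3a line (exact Poisson 95% interval 56.8 to 58.5) and 0 of 369159930 reads in the Sst line. Against a floor of 3 reads over the Sst line (0.00813 CPM), the sum of the Htr3a line was 7093-fold higher. The Poisson interval and this floor cover the counting of reads only, not the spread between cells. The floor is no lower bound on the difference between the lines. A single positive cell held 27 to 4779 reads. Leaving out any 1 Htr3a-line cell kept its sum between 46.4 and 62.4 CPM, and without replicate 10 the share was 10 of 22 cells (45.5%, 24.4 to 67.8).

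Htr3a, the subunit that can form the channel alone, was found in fewer cells than Htr3b in its own driver line. Reads were found in 5 of 23 cells of the Htr3a line (21.7%, 7.46 to 43.7) and in 2 of 23 cells of the Sst line (8.70%, 1.07 to 28). Replicate 2 of the Htr3a line had 532 CPM (7381 reads), replicate 18 had 81.5 CPM (1533 reads) and replicate 19 had 63.2 CPM (794 reads). The other Htr3a-line carriers were near the limit of detection, replicate 8 with 4 reads (0.413 CPM) and replicate 10 with 5 reads (0.269 CPM). In the Sst line, replicate 9 had 181 CPM (4107 reads) and replicate 14 had 88.7 CPM (500 reads). The levels of the lines overlapped, since both Sst-line carriers lay above 4 of the 5 Htr3a-line carriers.

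The mean log2(CPM + 1) of Htr3a was 0.97 ± 2.50 in the Htr3a line and 0.61 ± 2.02 in the Sst line, a difference of 0.36. Single cells set the sums. Htr3a took 28.2 CPM summed over the Htr3a line and 7.07 CPM without replicate 2, which held 76.0% of the reads. It took 12.5 CPM over the Sst line and 1.44 CPM without Sst line replicate 9, which held 89.1%. The difference of the means was -0.01 without Htr3a line replicate 2. Without replicate 10 of that line, Htr3a was read in 4 of 22 cells (18.2%, 5.19 to 40.3).

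**Figure D1:**
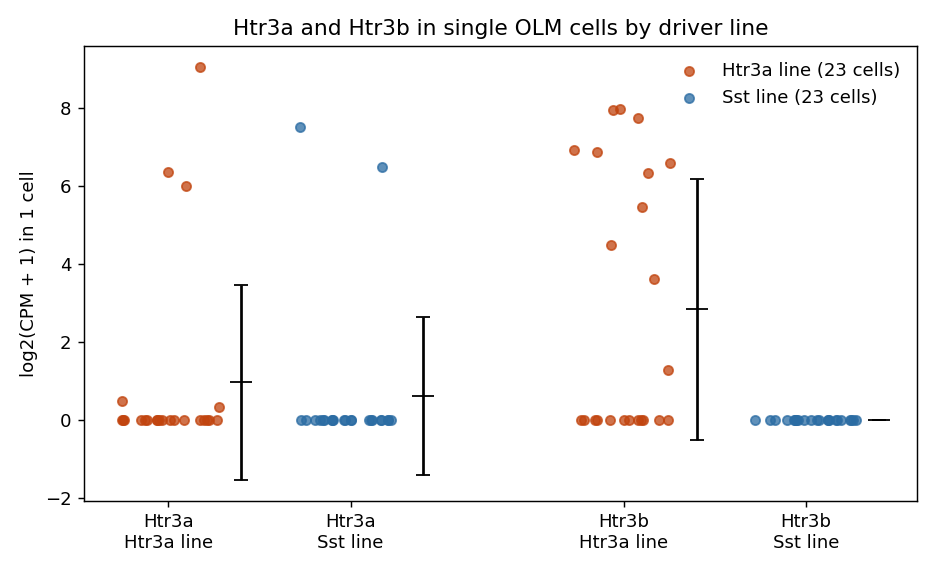
Level of each subunit gene in each cell, as log2(CPM + 1), with the Htr3a line left of the Sst line. Each point is 1 cell, and the black bar is the mean ± SD over 23 cells. Htr3b is above 0 in 11 Htr3a-line cells and 0 Sst-line cells, and Htr3a in 5 and 2.

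Most cells with a subunit carried reads of 1 subunit gene only, and usually of Htr3b. In the Htr3a line 4 of 23 cells had reads of both genes (17.4%, 4.95 to 38.8), 7 had Htr3b alone, 1 had Htr3a alone and 11 had neither. In the Sst line 0 cells had both, 2 had Htr3a alone and 21 had neither. Htr3b was read in 4 of the 5 Htr3a-line cells with Htr3a (80.0%) and in 7 of the 18 without it (38.9%), and Htr3a was read in 4 of the 11 Htr3b cells (36.4%). These shares rest on 5 cells with Htr3a and are a description. Alone means here that the other gene had no read, and a transcript present in the cell may have been missed in its library.

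The balance of the subunits differed between the 4 cells with both. Per kilobase of exon, replicate 2 had 255 CPM of Htr3a and 48.4 CPM of Htr3b, a Htr3b to Htr3a ratio of 0.190. Replicate 18 had 39.1 CPM per kilobase of Htr3a and 87.8 of Htr3b, a ratio of 2.24. Replicates 2 and 18 were the ones with both genes above 10 CPM, and they leaned opposite ways. Replicate 8 had 0.198 and 39.5 CPM per kilobase (ratio 199), and replicate 10 had 0.129 and 0.602 (ratio 4.67). With at least 5 reads required of each gene, 3 cells had both, and with at least 10 CPM, 2 cells. Without replicate 10, which stood apart in its gene number and blood markers, 3 cells had both. Over all 46 cells, which differ in depth, the Pearson correlation of the subunits' log2(CPM + 1) was 0.23, too weak in such sparse counts to be read as a relation.

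**Figure D2:**
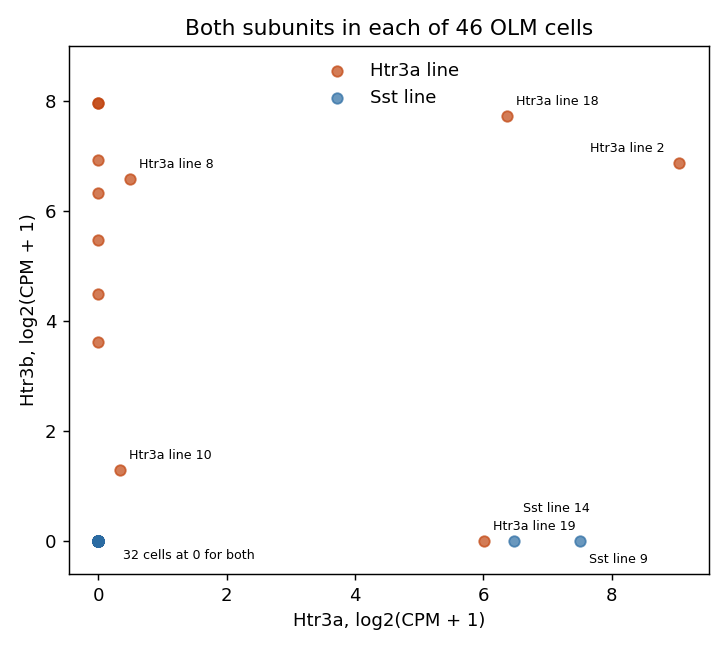
Htr3b against Htr3a in each of the 46 cells, as log2(CPM + 1), coloured by driver line, with replicate numbers beside the cells that carry Htr3a. The 4 cells off both axes are Htr3a line replicates 2, 8, 10 and 18, and 32 cells sit at 0 for both genes.

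Among the 14 serotonin receptor genes, Htr3b had the highest level per length in the Htr3a line and Htr3a the next highest. Summed over the Htr3a line, Htr3b took 23.9 CPM per kilobase of exon (19.2 to 25.9 with each cell left out) and Htr3a took 13.5 (3.39 to 14.7). Htr2a, an excitatory receptor coupled to Gq, took 4.26 (3.26 to 4.55). Thus Htr3b kept its place in these ranges, while Htr3a without replicate 2 overlapped Htr2a.

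The next genes in the Htr3a line were close to each other. Htr6, coupled to Gs, was at 3.88 CPM per kilobase, all of it from 1 cell. Htr7, also coupled to Gs, was at 3.46 (2.33 to 3.75). Htr1a and Htr1f, inhibitory receptors coupled to Gi, were at 3.01 (2.06 to 3.22) and 2.67 (1.70 to 2.89), ranges that overlap. Htr1b (0.883), Htr4 (0.591), Htr5a (0.214), Htr1d (0.210) and Htr2c (0.00623) followed, and Htr2b and Htr5b had no read in any cell.

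In the Sst line Htr3a headed the order only through 1 cell. It took 5.99 CPM per kilobase (0.693 to 6.55 with each cell left out), against 5.54 for Htr2a (3.12 to 5.91), 4.65 for Htr7 (2.07 to 5.09) and 3.61 for Htr1a (1.88 to 3.95). These 4 ranges overlap. Htr3b was at 0 there, as were Htr1b, Htr1d, Htr1f, Htr4 and Htr6, which were read in 3, 3, 8, 2 and 1 of the 23 Htr3a-line cells. The zero of Htr3b in the Sst line was thus shared by 5 metabotropic receptor genes that the Htr3a line held, with Htr1f nearest to it in cell number.

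Serotonin receptors of both kinds met in single cells. Of the 12 Htr3a-line cells with either subunit, 9 had reads of at least 1 metabotropic receptor gene (median 1, range 0 to 7), as did 9 of the 11 other Htr3a-line cells (median 1, 0 to 4) and 14 of the 23 Sst-line cells (median 1, 0 to 4). Replicate 3 of the Htr3a line carried Htr3b with Htr1b, Htr2a, Htr4, Htr5a and Htr7. Replicates 13, 18 and 23 carried a subunit and no metabotropic receptor read. Replicate 10, the library with the most genes, had 7 of these genes. Htr2a was read in 4 of the 12 carriers, 6 of the 11 other Htr3a-line cells and 11 of the 23 Sst-line cells. Htr1a was read in 5, 3 and 6 of these cells, Htr1f in 4, 4 and 0, and Htr1b in 3, 0 and 0. Both Sst-line cells with Htr3a had reads of Htr1a and Htr7.

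The detection pattern of Htr3b was set beside that of every gene. Of the 16032 genes with a read, 1 gene (0.00624%) had reads in at least 11 Htr3a-line cells and in 0 Sst-line cells, and that gene was Htr3b itself. The reverse pattern was met by 0 genes (0.0%). The count stayed at 1 with at least 5 reads, with at least 10 CPM and after thinning to 5000000 reads per cell. Since the pattern was taken from Htr3b, this gives its place among genes and is not a test. Among the 269 genes read in 11 cells in all, the median gene had 6 of them in the Htr3a line, and 1 gene, again Htr3b, had all 11 there (0.372%).

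Htr3a did not stand out in this way. Of the 335 genes read in 7 cells, 142 (42.4%) had at least 5 of them in the Htr3a line, as Htr3a did, and the median gene had 4. In mean log2(CPM + 1), 10 of the 12217 genes that were read in 5 or more cells (0.0819%), Htr3b among them, had a line difference as high as that of Htr3b. For Htr3a it was 4893 genes (40.1%). The median gene was 0.20 higher in the Htr3a line, where more genes were detected. The 9 genes above Htr3b differed from it in being read in the Sst line too. Camta2, a transcriptional activator, had the highest difference, 3.58, with reads in 21 Htr3a-line and 13 Sst-line cells. Pcsk1, a convertase that cleaves prohormones, had 2.90, with reads in 16 and 5 cells.

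**Figure D3:**
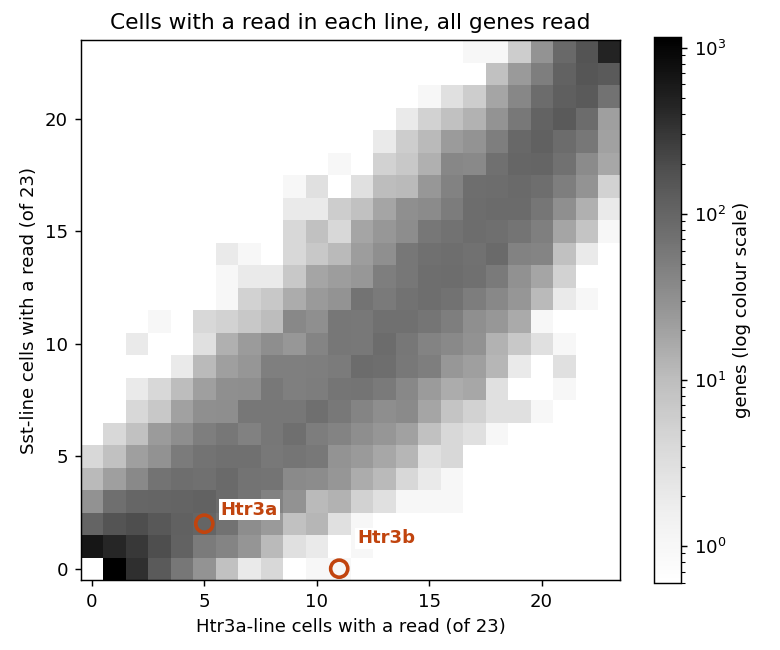
Number of Htr3a-line cells (x axis) and Sst-line cells (y axis) with a read of each gene, over the 16032 genes read, where grey shows the number of genes on a log colour scale. Htr3b, at 11 and 0 cells, lies on the lower edge as the gene farthest right, and Htr3a, at 5 and 2, lies among many genes.

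The genes around the subunits were read in both lines or in hardly any cell, and their differences between the lines went both ways. Of the 19 other genes annotated within 500 kb, 14 were counted and 11 had reads in at least 5 cells. Of these 11, 6 had a higher mean log2(CPM + 1) in the Htr3a line and 5 a lower one, with a median difference of 0.02 (range -0.99 to 1.50). A difference of at least 1 was seen for 2 of them, beside 13.7% of all genes, and one of -1 or below for 0, beside 3.87%. The 2 were Zbtb16 and Usp28, the counted genes on either side of the subunits. Zbtb16, Htr3a, Htr3b and Usp28 thus formed a run of 4 counted genes with higher means in the Htr3a line. The place of Htr3a in this run rested on 1 cell, since its difference of 0.36 was -0.01 without Htr3a line replicate 2. The median of all genes read in 5 or more cells was itself 0.20 higher in the Htr3a line.

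Usp28, a deubiquitinase and the neighbour of Htr3b, had reads in 15 cells of the Htr3a line and 10 of the Sst line (3.03 ± 2.61 against 1.53 ± 2.63, mean log2(CPM + 1) ± SD). Zbtb16, a transcription factor gene on the other side of Htr3a, was read in 15 and 9 cells (2.26 ± 2.37 against 1.15 ± 2.23). The differences of means were 1.50 and 1.11, against 2.84 for Htr3b. Usp28 was read in 8 of the 11 Htr3b cells and in 7 of the 12 other Htr3a-line cells, and Zbtb16 likewise in 8 and 7. Many of the cells with these neighbours thus had no Htr3b read.

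Farther out, Nnmt, a nicotinamide methyltransferase gene, had reads in 13 cells of either line and a lower mean in the Htr3a line (difference -0.99). Rexo2, an RNA exonuclease gene, had reads in 19 cells of the Htr3a line and 16 of the Sst line (0.78). Drd2, the dopamine D2 receptor gene, was read in 15 and 10 cells (0.02), and in 5 of the 11 Htr3b cells against 10 of the 12 other Htr3a-line cells. Zw10 (9 and 8 cells), Ttc12 (8 and 7), Rbm7 (15 and 12) and the predicted genes Gm5616 (20 and 21) and Gm5617 (7 and 5) were close to even in cell number. Nxpe4 was read in 2 and 5 cells, Tmprss5 in 0 and 1, and Ankk1 and Gm4894 in none.

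**Figure D4:**
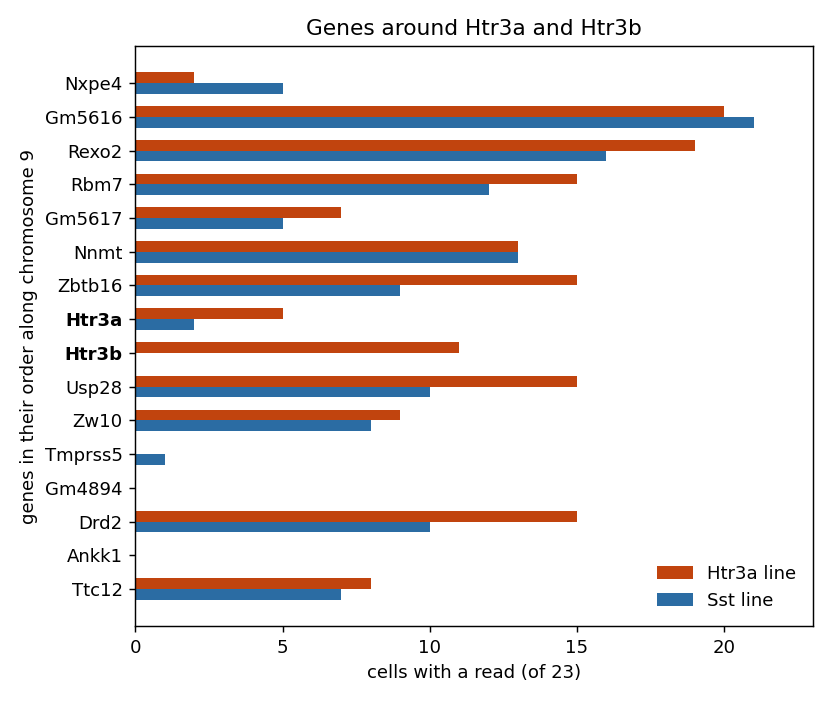
Number of cells with a read, of 23 per line, for Htr3a, Htr3b and the 14 counted genes within 500 kb of them, in their order along chromosome 9, with the Htr3a line above the Sst line. Htr3b has a bar of 11 cells in the Htr3a line and none in the Sst line, between neighbours read in both.

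The genes whose levels ran most like Htr3b were, unlike it, read in both lines. Pearson correlations with Htr3b were taken over all 46 cells, which share no library but differ in depth and line. Of the 12217 genes compared, predicted, pseudogene and sex-linked names were left out of the ranking. The highest of the rest were Vps37d (0.68), Lsmem1 (0.59), Rad51d (0.59), Nptx2 (0.58), Sqle (0.58), Serpina3g (0.57), Pcsk1 (0.56) and Jup (0.56). Vps37d, a subunit of the ESCRT-I sorting complex, was read in 10 of the 11 Htr3b cells, in 15 Htr3a-line cells in all and in 4 Sst-line cells. Sqle, an enzyme of cholesterol synthesis, was read in all 11 Htr3b cells, and in 19 Htr3a-line and 10 Sst-line cells. Ranked by the overlap of cells with a read in place of levels, Vps37d and Rad51d stayed among the first 8.

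Within the 23 Htr3a-line cells another set of genes came first. Gna12, a G protein alpha subunit, had a correlation of 0.80 with Htr3b, the highest of 11123 genes once the same names were left out. It was read in 14 Htr3a-line cells, which held all 11 Htr3b cells, and in 12 Sst-line cells, where Htr3b was at 0. Ehd3 (0.76), Max (0.75), Necab1 (0.72), Dfna5 (0.72), Dlx5 (0.70), Kbtbd2 (0.70) and Ccdc126 (0.69) followed. Dlx5, a homeobox factor of forebrain interneurons, was read in all 11 Htr3b cells and in 4 other Htr3a-line cells. Htr3a itself ranked 2059th there, with 0.28.

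For Htr3a over 46 cells the first genes were Pard3 (0.69), Dis3l (0.66), Penk (0.64), Rreb1 (0.64), Emilin1 (0.63), Tiam2 (0.60), Pcdhb16 (0.58) and Zfp799 (0.56). Pard3, a polarity protein, was read in 5 of the 7 Htr3a cells and 13 cells in all. Penk, the proenkephalin gene, was read in 4 of the 7 and in 3 other cells. None of these 8 was among the 8 most like Htr3b. With 7 cells above 0, such correlations rest on a few cells.

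Other genes were then described in the 12 Htr3a-line cells with a read of either subunit, called carriers here, beside the 11 other Htr3a-line cells and the 23 Sst-line cells. The carriers were chosen by their reads, so no test was made. Median reads were 15657000 in carriers, 15239200 in the others and 16726879 in Sst-line cells, with a wider range in the others (3391829 to 26136222) than in carriers (9690965 to 21757344). The medians of genes with a read were 8007, 8203 and 6569. Of the 12217 genes read in 5 or more of the 46 cells, 66.5% were read in a larger share of carriers than of the others (median 9.09 percentage points more, and 0.44 higher in mean log2(CPM + 1)). Without replicates 4, 10 and 20, which stood apart, it was 48.6% of genes (median 0 points, and 0.11 on the log2 scale). Replicate 6, which had the fewest genes in the line (3350), was kept among the 9 others that remained. Counts of list genes below are to be read against these shares, and are also given without the 3 libraries.

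Of 8 GABAergic genes, 4 had a larger share in carriers, 1 a smaller one and 3 were read in every Htr3a-line cell, with a median log2 difference of 1.14 (4 of 8 and 0.60 without the 3 libraries). These shares lie near or below those over all genes, 66.5% and 48.6%. Dlx5 had the widest gap, with reads in 11 of 12 carriers, 4 of 11 other Htr3a-line cells and 14 of 23 Sst-line cells (median 29.1, 0 and 9.55 CPM). Without the 3 libraries it was 10 of 11 carriers and 4 of 9 others. Of the related homeobox genes, Dlx6 was read in 6, 2 and 10 cells, and Dlx1 in 12, 8 and 20. Dlx2 went the other way, with 8 of 12 carriers, 9 of 11 others and 14 of 23 Sst-line cells. For Dlx1 the gap was 11 of 11 against 8 of 9 without the 3 libraries.

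Markers of other interneuron classes divided evenly, with 4 of 8 genes in a larger share of carriers and 4 in a smaller one (2 and 5 without the 3 libraries). Tac1, a tachykinin gene read in too few cells to enter this count, was found in 2 carriers, 0 others and 0 Sst-line cells. Of these 2 carriers 1 was replicate 10. Pvalb, the parvalbumin gene, was read in 4, 2 and 10 cells, and Id2 in 6, 7 and 12.

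Carriers had both MGE and CGE genes. Of 4 MGE genes with enough reads, 2 had a larger share in carriers and 2 were equal (1 of 4 larger without the 3 libraries). Lhx6, the MGE factor kept by mature somatostatin cells, was read in 12 of 12 carriers, 9 of 11 others and 18 of 23 Sst-line cells (median 143, 93.8 and 94.4 CPM). Sox6 was read in 10, 9 and 12 cells, and Satb1 and Maf in every Htr3a-line cell. Nkx2-1 was read in 1, 0 and 0 cells, and Lhx8 in 0, 1 and 0.

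Of 4 CGE genes, 2 had a larger share in carriers (1 of 4 without the 3 libraries). The nuclear receptor gene Nr2f2 was read in 9 carriers, 7 others and 11 Sst-line cells, and Nr2f1 in 8, 6 and 12. Npas1 was read in 10, 10 and 18 cells, and Adarb2 in 2, 2 and 1. Prox1 and Sp8, defining CGE factors, and Vip, the peptide of a CGE interneuron class, were each read in 1 carrier and in no other cell. That carrier was replicate 10 in each case.

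Sst itself was read in every cell (median 16864, 16414 and 8109 CPM in carriers, other Htr3a-line and Sst-line cells). Of 8 OLM genes, 4 had a larger share in carriers, 1 a smaller one and 3 were equal, with a median log2 difference of -0.16 (3 larger, 2 smaller and -0.07 without the 3 libraries). Chrna2, a nicotinic subunit gene known from OLM cells, was found in 4 of 12 carriers, 6 of 11 others and 6 of 23 Sst-line cells. Crhbp, a binding protein for corticotropin-releasing hormone and chosen after its values were seen, had a median of 1012 CPM in carriers, 360 CPM in the others and 968 CPM in Sst-line cells.

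Partners in the Cys-loop family were widely read whether or not a subunit was. Ric3, a chaperone that helps 5-HT3 and nicotinic receptors to fold, was read in 11 of 12 carriers, 9 of 11 others and 20 of 23 Sst-line cells (median 106, 144 and 89.1 CPM). Of 8 chaperone and accessory genes, 4 had a larger share in carriers, 1 a smaller one and 3 were equal (also 4 larger and 1 smaller without the 3 libraries). Tmem35, which encodes a chaperone of the alpha7 nicotinic receptor, was read in 10, 7 and 13 cells, with medians of 56.9, 1.77 and 1.58 CPM. Chrna7, the alpha7 subunit gene, chosen after its values were seen, was read in 10, 8 and 14 cells, with medians of 117, 3.0 and 0.90 CPM. These medians rest on cells that divide into high and near 0, and without the 3 libraries Chrna7 had 130 CPM in 11 carriers and 9.37 CPM in 9 others.

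Other channel subunits of the family went either way. Of 7 nicotinic genes, 1 had a larger share in carriers and 5 a smaller one, with or without the 3 libraries, beside 66.5% and 48.6% of all genes with a larger share. Chrna1, the muscle-type subunit gene, was read in 1, 5 and 2 cells, and Chrna4 in 4, 5 and 3. Glrb, the glycine receptor beta subunit gene, was read in 12, 9 and 22 cells and Glra2 in 4, 2 and 3. These are the 2 glycine receptor genes with enough reads, too few to read against the share over all genes.

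Genes that handle serotonin were sparse. Tph2, the enzyme gene of neuronal serotonin synthesis, was read in 0 carriers, 1 other Htr3a-line cell and 0 Sst-line cells. Slc6a4, the serotonin transporter gene, was read in 0, 0 and 1 cells. Slc29a4, a low-affinity monoamine transporter gene, was read in 8, 5 and 5 cells. Slc18a2, the vesicular monoamine transporter gene, was read in 5, 6 and 5, and Maoa, which breaks serotonin down, in 4, 5 and 7. Of the 3 with enough reads, 1 had a larger share in carriers, with or without the 3 libraries.

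**Figure D5:**
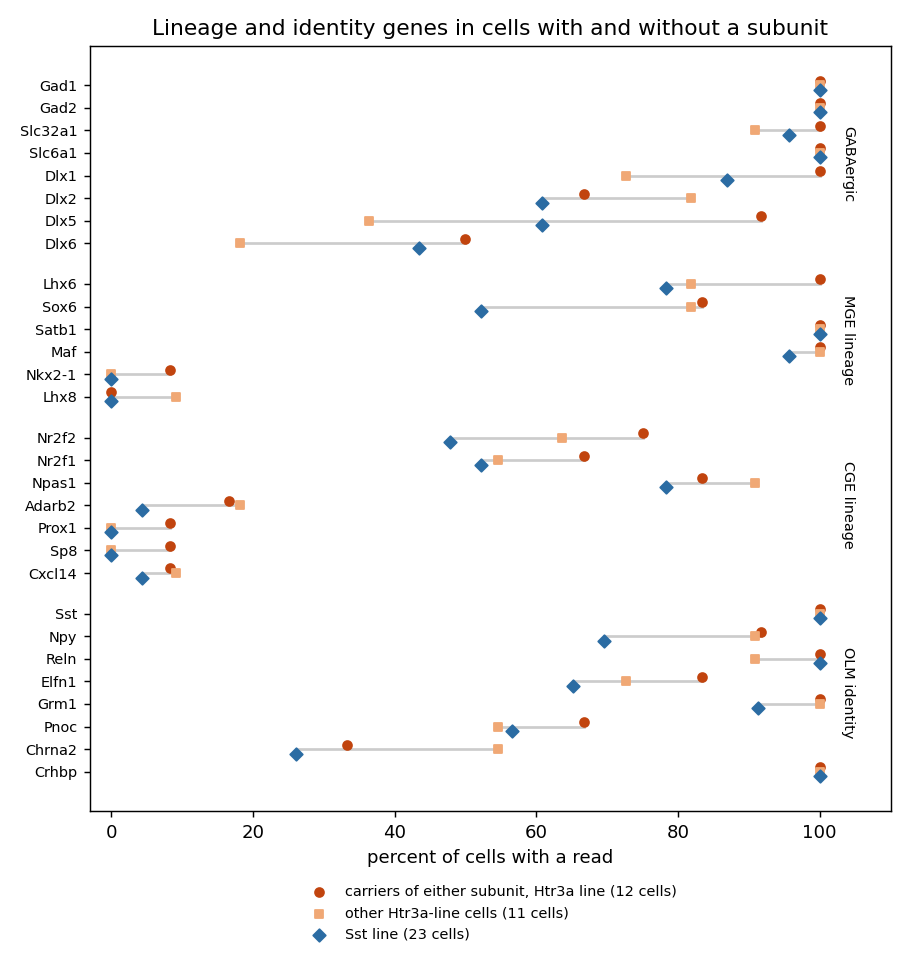
Percent of cells with a read of each GABAergic, MGE, CGE and OLM gene in the 12 Htr3a-line carriers of Htr3a or Htr3b, the 11 other Htr3a-line cells and the 23 Sst-line cells. The widest gaps between carriers and the others are at Dlx5 (11 of 12 against 4 of 11), Dlx6 and Dlx1, while Sst, Gad1 and Satb1 are read in every Htr3a-line cell.

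Genes with reads in at least 12 cells (9393 genes) were ranked by the difference of mean log2(CPM + 1) between carriers and other Htr3a-line cells. Predicted, pseudogene and sex-linked names were not picked. The highest differences were those of Dfna5 (4.55), Gna12 (4.43), Nfe2l1 (4.43), Kbtbd2 (4.38) and AW549877 (4.33). Gna12 was read in 11 carriers, 3 others and 12 Sst-line cells. Kbtbd2 was read in 12, 4 and 17. Nfe2l1, a transcription factor of proteasome genes, was read in 12, 8 and 21. For these genes the Sst-line cells, with no Htr3b, lay between the carriers and the other Htr3a-line cells in share of cells. Gna12, Dfna5 and Kbtbd2 were also among the genes most like Htr3b within the Htr3a line. Of the 12 carriers 11 had Htr3b, so both rankings rest on nearly the same comparison of cells.

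The lowest differences were those of Scpep1 (-3.91), Ryr2 (-3.67), Nfkbia (-3.55), Vps13a (-3.46) and Fsd1l (-3.35). Ryr2, a calcium release channel of the endoplasmic reticulum, was read in 8 carriers, 10 others and 20 Sst-line cells. Nfkbia, the inhibitor of NF-kappaB, was read in 3, 9 and 10 cells. Scpep1, a serine carboxypeptidase gene, was read in 4, 9 and 13. These genes, picked as the extremes of 9393, kept their signs without the 3 libraries (4.23, 4.36, 4.17, 4.21 and 4.07 for the highest, and -5.21, -4.12, -4.97, -2.99 and -3.53 for the lowest).

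Glial markers were lower in carriers than in other Htr3a-line cells. All 9 microglial genes had a lower mean log2(CPM + 1) in carriers, beside 32.1% of all genes, with a median difference of -1.91 (all 9, beside 44.4%, and -2.75 without the 3 libraries). Their summed level ranged from 11.3 to 3228 CPM in carriers (median 154), 0 to 8852 in the others (median 1169) and 0.0536 to 9570 in Sst-line cells (median 704). P2ry12, a microglial purine receptor gene, was read in 4, 7 and 10 cells. Of 5 oligodendrocyte genes 4 were lower (5 without the 3 libraries), with summed levels of 0.144 to 934 CPM in carriers (median 70.2), 1.98 to 13314 in the others (median 165) and 0.473 to 5324 in Sst-line cells (median 196). Of 7 astrocyte genes 6 were lower (6 also without the 3 libraries), with summed levels of 3.19 to 807 CPM in carriers (median 81.5), 0.360 to 1495 in the others (median 223) and 0.204 to 1049 in Sst-line cells (median 143). The highest oligodendrocyte and astrocyte sums among the others were those of replicate 4, and without the 3 libraries they were 7114 and 501 CPM, the astrocyte sum then below the highest carrier's 807 CPM. Slc1a2, a glial glutamate transporter gene, was read in 3, 9 and 10 cells, and Cldn11 in none.

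Blood and excitatory-cell genes gave another picture. Of the vascular and blood genes, Hba-a1, a hemoglobin gene, was read in 5 carriers, 0 others and 4 Sst-line cells, with a summed level for the list of 0 to 10912 CPM, 0 to 13.5 and 0 to 292. Without replicate 10 the highest carrier was at 133 CPM. Of the endothelial genes, Pecam1 was read in 2 carriers, 5 others and 5 Sst-line cells, and Cldn5 and Flt1 in 1 carrier and no other cell. Of 4 glutamatergic genes with enough reads, 1 had a larger share in carriers (0 without the 3 libraries), and Slc17a7, the vesicular glutamate transporter gene of pyramidal cells, was read in 1, 1 and 0 cells. The part of these markers in the differences between carriers and other cells was not tested.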

How the data were processed

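Each of 46 libraries holds the cytosol of 1 OLM cell. The deposited counts are raw read counts per gene (22800 symbols, and a second table by Ensembl identifier). Per the submitters' processing notes, the tools were Trimmomatic, STAR and featureCounts and the build GRCm38. Their versions, the gene annotation and the strandedness were not given in the sources used here. The normalized table deposited by the authors is a signal equal to count divided by 1 factor per cell (0.144 to 2.09, all non-zero values within 0.1%). Since molecular identifiers are not mentioned, a molecule may have been counted repeatedly.

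CPM, the counts scaled to 1000000 per cell, were used as log2(CPM + 1). Differences are Htr3a line minus Sst line, or carriers minus other Htr3a-line cells. Shares carry exact Clopper-Pearson and summed CPM exact Poisson 95% intervals. For a summed count of 0, a floor of 3 reads was used. Levels per kilobase use the union of GENCODE M21 exons. Of 1035 library pairs 0 were identical.

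The members, 15 gene lists and alternatives were chosen with earlier results of these data known. Named genes are the serotonin receptor, chaperone, CGE and MGE genes, from other lists the 3 with the largest difference in share between carriers and other Htr3a-line cells, every gene within 500 kb, the 8 most alike, and the 5 highest and 5 lowest carrier differences. Predicted, pseudogene and sex-linked names were left out of data-driven picks. Other list genes named, such as Sst, Gad1, Satb1, Maf, Tph2, Slc6a4, Cldn5, Flt1, Cldn11 and Slc17a7, and Camta2 were chosen after their values were seen. Some list genes are not reported here and enter no list count. Alternatives were 5 reads or 10 CPM as minimum, thinning to 5000000 reads, a pseudocount of 10, TMMwsp factors (edgeR 4.0.16), poscounts factors (DESeq2 1.42.0), the normalized and Ensembl tables, other definitions of carriers and each cell left out. Leaving out Htr3a line replicates 4, 10 and 20 was added after seeing the data. On simulated counts of 22800 genes, 100% of 100 genes planted with the cell pattern of Htr3b and 100% of 100 planted as alike were recovered. The planted genes were built to meet these patterns, so this checks the code and not the power in these data. Python 3.11.15, numpy 2.4.6, scipy 1.17.1 and pandas 2.3.3 were used.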

Additional observations from a re-analysis of the deposited data

How the results depend on the processing

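Of 53 values recomputed under another setting, leaving out single cells apart, 1 turned its direction. Another 7, all of them counts, moved by over 1.5 times, the limit set for counts. Shares and differences were held to other limits, and some of them also changed by over 1.5 times. With a pseudocount of 10 the Htr3b difference was 1.44 and the Htr3a difference 0.19. At 10 CPM the share of Htr3a-line cells with Htr3a was 13%. The number of cells with both subunits moved to 2 at a minimum of 10 CPM and was 3 without Htr3a line replicate 10. The median number of genes with a read was 196 lower in carriers of either subunit than in other Htr3a-line cells (-196). The difference was -389 with carriers at 10 CPM and -420 without replicates 4, 10 and 20. It turned to 637.5 higher when Htr3b carriers alone were set against the rest (medians 8169 and 7531.5). That change moved 1 cell, replicate 19 with Htr3a alone and 6860 genes, from the carriers to the rest. The sign thus hung on the placing of 1 cell. The other 6 moved values were counts of list genes or of the genes most like Htr3b. Leaving out each of the 46 cells in turn, the Htr3b difference ranged from 2.60 to 2.97 and the Htr3a difference from -0.00784 (without Htr3a line replicate 2) to 0.673, with 1 of 92 such values reversed. The Htr3b difference was 2.78 to 2.97 under other scalings and thinning. Thinning left out 1 Htr3a-line cell and gave Htr3b in 50.0% and Htr3a in 22.7% of 22 cells. No paired analysis was possible because each line counts as 1 sample and no test was made. At these depths 1 read is worth 0.0319 to 0.295 CPM.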
